A study of Mus musculus with 4 samples.

Results

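Interferon-stimulated genes are the genes that cells switch on when they sense type I or type II interferon. They were followed here through a list of 35 genes, of which 31 could be tested among 16443 genes in lung tumours of CD109+/+ and CD109-/- mice. Probes were found through the accession printed for each array spot, and the brightest probe stood for a gene. Of the 35 genes, 32 had a named probe. Oas1b, Mx1 and Mx2, which the RefSeq table lists as transcribed pseudogenes in this mouse strain, were matched to none and were not analysed here. Gbp9 had a probe that was well above background on 1 array of each genotype and was left out of the tests.

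Type I interferons signal through the IFNAR receptor, JAK1 and TYK2 to a complex that includes STAT2 and IRF9 and binds the interferon-stimulated response element (ISRE) in promoters. Interferon gamma signals through the IFNGR receptor and acts on promoters that hold the gamma-activated site (GAS). The first route is known for antiviral effectors such as the Ifit, Oas and Mx genes, and the second for guanylate-binding proteins (Gbp genes) and immunity-related GTPases such as Irgm1 and Igtp, although many of these genes respond to both. In tumours, tumour cells, macrophages and other stromal cells can all express them.

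The tumours came from KP mice of the strain C57BL/6J, a lung tumour model in which Cre recombinase starts the tumours. All 4 samples had received adenoviral Cre by the intratracheal route, and RNA was taken from the lung tumours 88 to 92 days later. The controls were 2 samples with the genotype CD109+/+, both from females, and the knockouts were 2 samples with the genotype CD109-/-, of which replicate 1 came from a male and replicate 2 from a female. The sources used here do not give the age of the mice, the promoter that drives Cre or the number of tumours in a sample. Each label speaks of 1 mouse but does not state that replicates were separate animals. P-values therefore measure only the spread between these samples.

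Each sample was read on 1 single-colour array, and 64.3% to 67.0% of spots were well above background. Pearson correlations between arrays over the tested probes lay between 0.968 (the CD109-/- arrays with each other) and 0.982 (the CD109+/+ arrays with each other). The probe of Cd109 was well above background on both CD109+/+ arrays and on 0 of the CD109-/- arrays, a signal at least 2.92-fold higher in CD109+/+ tumours (adjusted p = 0.297 with limma). Xist and Y-linked genes matched the sex given for all 4 arrays. All 8 lung epithelium markers, among them Sftpc and Nkx2-1, were well above background on every array.

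Promoter sequence is given first, because it was not part of the rule that compared the members. A promoter window of 300 bases, from 250 before to 50 after the gene start, was held by the RefSeq tables (GRCm38.p6) for 25 of the 35 genes. Each was searched on both strands for an ISRE core, taken as a pair of GAAA runs with any 2 bases between them, and for the GAS element TTCNNNGAA, which reads the same on both strands, and overlapping matches were kept. The ISRE core stood in the windows of 16 of the 25 genes (64.0%), against 3.99% of all 27025 genes with a window. A GAS element stood in 8 of 25 (32.0%), against 9.55% of all genes. By role, the ISRE core was found in 6 of 6 GTPases, 4 of 7 type I antiviral genes, 3 of 5 other effectors, 2 of 2 RNA sensors and 1 of 5 transcription factors. GAS elements were found in 3 of 6 GTPases, 2 of 7 antiviral genes, 1 of 5 other effectors, 0 of 2 sensors and 2 of 5 transcription factors. A match is a description of the letters and not a measured binding site.

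The 250 bases before the start are shown, 5′ to 3′ on the gene's strand, for the 8 genes with a match whose genotypes stood furthest apart against their error. Capitals mark ISRE cores and GAS elements on either strand.
Rsad2 (chr12:26456453-26456702, minus strand): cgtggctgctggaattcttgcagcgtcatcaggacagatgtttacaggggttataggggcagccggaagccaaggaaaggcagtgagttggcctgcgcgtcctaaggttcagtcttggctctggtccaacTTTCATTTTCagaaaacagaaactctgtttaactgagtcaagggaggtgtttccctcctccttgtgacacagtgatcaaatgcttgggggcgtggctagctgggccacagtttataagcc
Gbp5 (chr3:142496684-142496933, plus strand): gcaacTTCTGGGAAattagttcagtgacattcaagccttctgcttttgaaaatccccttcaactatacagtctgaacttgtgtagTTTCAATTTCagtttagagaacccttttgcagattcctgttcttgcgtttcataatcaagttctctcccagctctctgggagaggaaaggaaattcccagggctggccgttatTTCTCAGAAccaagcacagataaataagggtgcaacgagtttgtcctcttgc
Bst2 (chr8:71537473-71537722, minus strand): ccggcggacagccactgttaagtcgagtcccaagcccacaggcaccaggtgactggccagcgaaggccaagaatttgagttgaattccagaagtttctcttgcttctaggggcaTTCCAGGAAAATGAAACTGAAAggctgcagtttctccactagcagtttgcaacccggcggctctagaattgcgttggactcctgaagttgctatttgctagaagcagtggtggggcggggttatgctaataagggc
Oas3 (chr5:120777660-120777909, minus strand): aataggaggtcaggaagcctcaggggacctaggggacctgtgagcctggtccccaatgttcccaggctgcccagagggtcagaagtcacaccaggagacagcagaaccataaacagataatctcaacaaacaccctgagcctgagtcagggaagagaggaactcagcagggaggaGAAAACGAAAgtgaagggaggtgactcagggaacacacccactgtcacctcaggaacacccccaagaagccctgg
Gbp2 (chr3:142620413-142620662, plus strand): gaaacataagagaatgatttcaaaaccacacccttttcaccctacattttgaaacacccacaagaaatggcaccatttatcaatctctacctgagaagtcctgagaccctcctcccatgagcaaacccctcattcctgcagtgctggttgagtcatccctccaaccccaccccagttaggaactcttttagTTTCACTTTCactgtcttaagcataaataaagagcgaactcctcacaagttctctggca
Gbp3 (chr3:142559794-142560043, plus strand): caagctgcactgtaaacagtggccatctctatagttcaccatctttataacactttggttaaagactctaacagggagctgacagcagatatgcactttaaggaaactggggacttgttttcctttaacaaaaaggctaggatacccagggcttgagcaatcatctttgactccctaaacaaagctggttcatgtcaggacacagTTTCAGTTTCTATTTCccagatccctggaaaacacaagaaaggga
Gbp7 (chr3:142530086-142530335, plus strand): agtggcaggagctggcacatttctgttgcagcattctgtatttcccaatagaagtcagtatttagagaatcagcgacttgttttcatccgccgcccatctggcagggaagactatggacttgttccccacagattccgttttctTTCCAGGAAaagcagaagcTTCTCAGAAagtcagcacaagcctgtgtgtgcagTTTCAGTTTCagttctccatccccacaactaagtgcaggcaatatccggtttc
Oas1a (chr5:120907526-120907775, minus strand): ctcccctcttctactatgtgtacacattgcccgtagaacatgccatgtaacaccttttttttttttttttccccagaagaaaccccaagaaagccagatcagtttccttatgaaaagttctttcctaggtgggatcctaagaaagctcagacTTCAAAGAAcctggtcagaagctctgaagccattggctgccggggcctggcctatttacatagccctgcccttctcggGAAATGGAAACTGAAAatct

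Gbp3, Bst2 and Oas1a each hold 2 ISRE cores that overlap by a GAAA run, the tandem arrangement also seen in Irgm1 and, with 3 cores, in Isg15. In Bst2 a GAS element runs into the first ISRE core, and Oas1a holds a GAS element further upstream. Gbp5 and Gbp7 hold 1 ISRE core and 2 GAS elements each. Rsad2, Gbp2 and Oas3 hold a single ISRE core and no GAS element. Most matches lay upstream of the start, and those of Ddx58 and Ifih1 lay just after it, 3 and 33 bases from it.

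**Figure D1:**
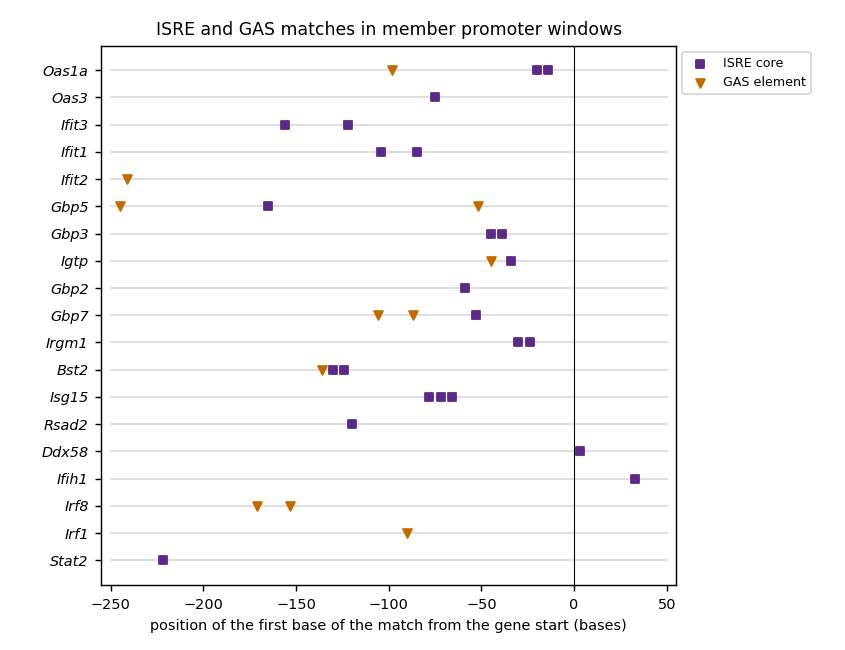
Positions of ISRE cores (squares) and GAS elements (triangles) in the promoter windows of the members that hold either, in bases from the gene start (vertical line). The ISRE cores of Isg15, Irgm1, Gbp3, Bst2 and Oas1a lie in overlapping tandem, and Irf1, Irf8 and Ifit2 show GAS elements only.

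The question put to these data was whether the interferon-stimulated genes differ with CD109 genotype. Signals are given on the log2 scale after subtraction of the array's 75th percentile. A difference is the CD109-/- mean minus the CD109+/+ mean of 2 arrays each, with the standard error (SE) that limma fitted. Mean values were higher in CD109-/- tumours for 29 of the 31 members, against 50.4% of all genes tested, and the median difference over the members was 0.46, against 0.0033 over all genes. No member passed limma's Benjamini-Hochberg threshold of 0.05 (0 of 31, background 0.00%), and the lowest adjusted p of a member was 0.541. Before adjustment, 4 of 31 members had a p under 0.05 (background 7.43%). Oas2, Gbp4 and Gbp5 had higher values and Rsad2 lower values in CD109-/- tumours, where 822 of the genes tested were higher and 399 lower at that p. The genotypes did not overlap in 15 members with higher values (background 20.3%) and in 1 with lower values (background 18.2%). Among the 15, Oas3 entered the tests only through the CD109-/- arrays, where it was higher. In bulk tumour RNA, fewer cells of a type and less RNA per cell cannot be told apart. For 1 gene on 2 against 2 arrays, the smallest p of an exact permutation test (two-sided) is 0.333.

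The excess of higher means rested largely on 1 control array. CD109+/+ replicate 1 held the lowest of the 4 values for 26 of 31 members, or 83.9%, against 23.8% of all genes. The lowest value lay on CD109+/+ replicate 2 for 2 members (background 22.1%), on CD109-/- replicate 1 for 2 (background 29.4%) and on CD109-/- replicate 2 for 1 (background 24.7%). At the upper end, CD109+/+ replicate 1 held the highest value of 0 members (background 27.4%) and CD109+/+ replicate 2 that of 8 (background 17.3%). CD109-/- replicates 1 and 2 held the highest value of 9 (background 28.1%) and 14 (background 27.3%). Without CD109+/+ replicate 1, 19 of 31 members had the higher mean in CD109-/- tumours (53.3% of all genes), the median difference was 0.12, and 1 member had an unadjusted p under 0.05. Without CD109+/+ replicate 2, it was 29 of 31 members (48.1% of all genes) with a median of 0.67. Array by array, CD109-/- replicates 1 and 2 were each above CD109+/+ replicate 1 in 29 of 31 members (48.7% and 49.2% of all genes). The median differences were 0.67 and 0.75. They were above CD109+/+ replicate 2 in only 18 and 20 members (52.5% and 52.9% of all genes), with median differences of 0.086 and 0.17. Between the CD109+/+ arrays, replicate 2 was above replicate 1 in 28 of 31 members by a median of 0.56. This gap between 2 single arrays is larger than the median difference of 0.46 between the genotype means. Over all genes replicate 2 was above replicate 1 in 46.0%, with a median of -0.037. Between the CD109-/- arrays, replicate 1 was above replicate 2 in 11 of 31 members (7820 of 16443 over all genes). There the median of replicate 2 minus replicate 1 was 0.098, against 0.028 over all genes.

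**Figure D2:**
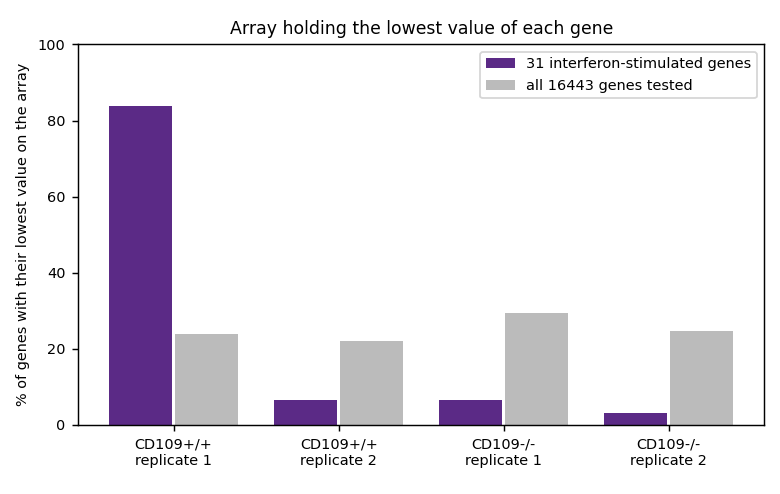
Share of genes, in percent, whose lowest of 4 values fell on each array, for the 31 tested interferon-stimulated genes (purple) and all 16443 genes tested (grey). CD109+/+ replicate 1 held the lowest value of 83.9% of the members and of 23.8% of all genes.

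**Figure D3:**
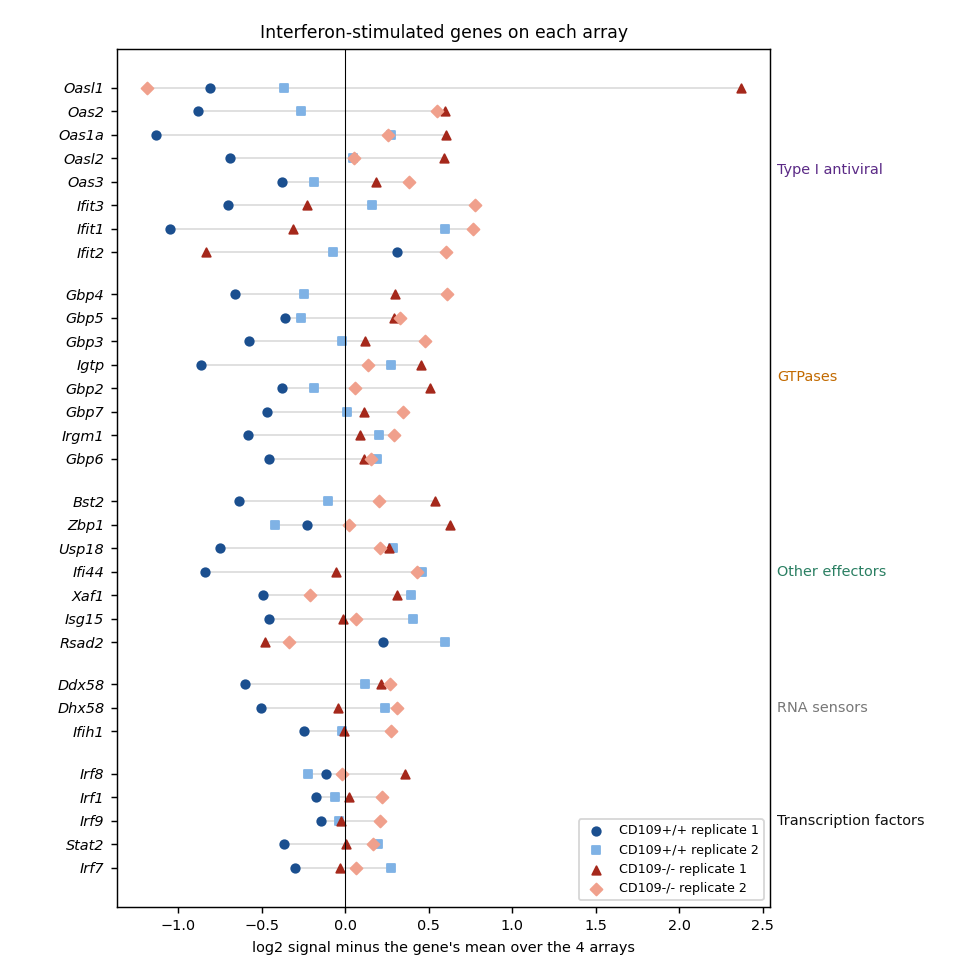
Log2 signal of each tested member on each of the 4 arrays, minus that gene's mean over the arrays, grouped by role. The dark blue circles (CD109+/+ replicate 1) are leftmost for 26 of 31 members, Oasl1 stands out on CD109-/- replicate 1, and Rsad2 runs the other way.

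Among the type I antiviral genes, 8 of the 11 listed were tested, and 7 had a higher mean in CD109-/- tumours (background 50.4%), with a median difference of 0.61. The Oas genes encode oligoadenylate synthetases, which sense double-stranded RNA and activate RNase L, and their Oasl relatives lack that enzyme activity or have other antiviral roles. Oas2 gave -1.80 and -1.18 on the control arrays and -0.32 and -0.37 on the knockout arrays. It had the lowest p of the members, a difference of 1.14 ± 0.29 with both CD109-/- arrays above both controls (limma's adjusted p = 0.541). A further Oas2 probe was not well above background on any array.

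Oas1a read 0.37 and 1.78 on the control arrays and 2.11 and 1.76 on the knockout arrays, so that only CD109+/+ replicate 1 was low and the genotypes overlapped. Signal from the close paralog Oas1g cannot be told apart here, since cross-hybridisation was not examined. Oas3 was dim, at -5.83 and -5.64 against -5.27 and -5.07. The first of these values was not well above background, the genotypes did not overlap, and the difference was 0.57 ± 0.22, but -0.054 with normexp background correction. Oasl2 gave -0.97 and -0.23 against 0.31 and -0.23, with CD109+/+ replicate 2 and CD109-/- replicate 2 almost level.

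Oasl1, which dampens interferon production by holding back translation of Irf7, had a pattern of its own. Its signals were -1.57 and -1.13 in the controls and 1.61 and -1.95 in the knockouts. The CD109-/- arrays were thus the highest and the lowest of the 4, and the gap between them (replicate 2 minus replicate 1, -3.56) was the widest between replicates of any tested member. A further Oasl1 probe gave the same picture, with -3.96, -3.23, -0.42 and -4.04 in the same order. The array with the high signal is that of the only male. The difference between genotypes, 1.18 ± 1.21, was smaller than its error, and without that array it was -0.60.

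The Ifit genes encode proteins that bind viral RNA and block its translation, and all 3 overlapped between genotypes. Ifit1 read -2.995 and -1.35 on the control arrays and -2.26 and -1.18 on the knockout arrays, so that each replicate 2 was above each replicate 1. Ifit3 ran likewise, with -1.20 and -0.34 against -0.73 and 0.28, and its near-identical copy Ifit3b, which may share the signal, with -3.27 and -2.58 against -2.87 and -1.83. Ifit2 gave -2.89 and -3.27 against -4.03 and -2.59, where CD109-/- replicate 1 was lowest and CD109-/- replicate 2 highest. The differences of Ifit1, Ifit3 and Ifit2 were 0.45 ± 0.68, 0.54 ± 0.49 and -0.23 ± 0.53. For Ifit1 the sign turned without CD109+/+ replicate 1 (-0.37) or CD109-/- replicate 2 (-0.087), and for Ifit2 without CD109-/- replicate 1 (0.49).

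The GTPases known for their response to interferon gamma were higher on average in 8 of 8 tested genes (background 50.4%), with a median difference of 0.58 and a range of 0.27 to 0.90. Guanylate-binding proteins coat pathogen-containing vacuoles and cytosolic bacteria. Gbp4 gave -2.45 and -2.04 in the controls and -1.50 and -1.18 in the knockouts, a difference of 0.90 ± 0.27 (limma's adjusted p = 0.581). Gbp5, which also promotes inflammasome assembly, had the tightest replicates of the group, with -3.04 and -2.95 against -2.39 and -2.35, a difference of 0.62 ± 0.21 (limma's adjusted p = 0.610). In both genes every CD109-/- array was above every CD109+/+ array.

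Gbp2 read -0.62 and -0.43 on the control arrays and 0.27 and -0.18 on the knockout arrays. Gbp3 followed with -1.39 and -0.84 against -0.70 and -0.34, and Gbp7 with -3.42 and -2.94 against -2.84 and -2.60. In these 3 genes the genotypes did not overlap (background 20.3%), with differences of 0.57 ± 0.26, 0.60 ± 0.30 and 0.46 ± 0.27. The remaining GTPases overlapped. Gbp6 read -3.27 and -2.63 against -2.71 and -2.66, with only CD109+/+ replicate 1 apart.

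The immunity-related GTPases Irgm1 and Igtp act at vacuole membranes and in autophagy. Irgm1 gave 0.10 and 0.89 in the controls and 0.77 and 0.98 in the knockouts, and Igtp gave -0.34 and 0.80 against 0.98 and 0.66. In both, CD109+/+ replicate 2 lay between the CD109-/- values and CD109+/+ replicate 1 below them. Gbp9, untested, read -5.92 and -5.17 against -5.07 and -5.52, where CD109+/+ replicate 2 and CD109-/- replicate 1 were the arrays above background. The Gbp genes lie in clusters of close paralogs, and signal shared between them was not examined.

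Set side by side, the antiviral genes and the GTPases had median differences close to each other. The median difference of the Ifit and Oas genes exceeded that of the GTPases by 0.029 (0.61 against 0.58), and leaving out CD109+/+ replicate 2 gave a gap of 0.41, leaving out CD109+/+ replicate 1 one of -0.057. With the other effectors and the RNA sensors added to the antiviral side, 18 genes in all, it was -0.10. On single arrays, the median shift from each gene's mean was -0.76 for the antiviral genes and -0.52 for the GTPases on CD109+/+ replicate 1, and -0.014 and -0.0065 on CD109+/+ replicate 2. It was 0.39 and 0.21 on CD109-/- replicate 1 and 0.46 and 0.31 on CD109-/- replicate 2. The antiviral median was thus the further from 0 on each array. The genotypes did not overlap in 5 of 8 GTPases and in 3 of 8 antiviral genes (background 20.3%). Of these 3 antiviral genes, Oas3 entered the tests only through the CD109-/- arrays, where it was higher. Differences ran from -0.23 to 1.18 among the antiviral genes.

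**Figure D4:**
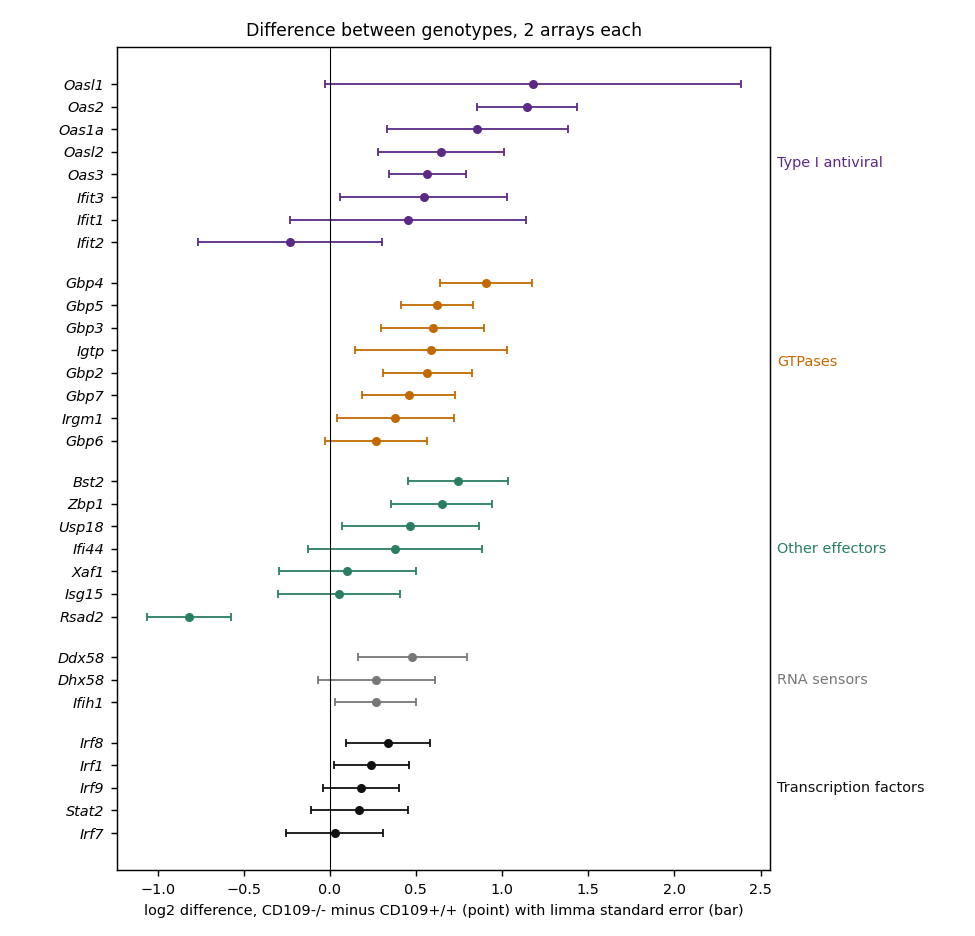
Difference between genotypes for each tested member, in log2 units, with limma's standard error as the bar (n = 2 per genotype), grouped by role. The 8 GTPases lie between 0.27 and 0.90, Oasl1 has the widest error, and Rsad2 lies at -0.82.

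The other effectors were the group in which CD109+/+ replicate 2 stood highest. Of 7 genes 6 had a higher mean in CD109-/- tumours (background 50.4%), with a median difference of 0.38 that became -0.27 without CD109+/+ replicate 1. Isg15, a ubiquitin-like modifier, read 0.68 and 1.55 on the control arrays and 1.13 and 1.20 on the knockout arrays. Usp18, which removes Isg15 from proteins and damps the IFNAR receptor, read -1.89 and -0.86 against -0.88 and -0.94. Both genes thus had their lowest and highest values within the controls. Ifi44 (-3.75 and -2.45 against -2.97 and -2.48) and Xaf1, a promoter of apoptosis (-0.17 and 0.72 against 0.64 and 0.12), did the same. Xaf1 had the widest disagreement between probes, with a difference of 0.10 for the brightest and 0.69 for a further one.

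Rsad2, which encodes the antiviral enzyme viperin, was the clearest exception. Its signals were -3.31 and -2.94 in the controls and -4.01 and -3.87 in the knockouts, with both CD109-/- arrays below both controls. The difference was -0.82 ± 0.24 (limma's adjusted p = 0.581), and a further probe, not well above background on any array, gave -0.65. Bst2, the tetherin that holds budding virus at the cell surface, ran the opposite way with 1.25 and 1.78 against 2.42 and 2.09, a difference of 0.74 ± 0.29. Zbp1, a sensor of Z-form nucleic acid that can trigger necroptosis, read -1.42 and -1.61 against -0.56 and -1.17. It was one of the 2 members, with Irf8, whose lowest value was on CD109+/+ replicate 2.

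The cytosolic RNA sensors differed less. Ddx58 encodes RIG-I, Ifih1 encodes its relative for long double-stranded RNA, and Dhx58 a regulator of both. Ddx58 gave 0.41 and 1.13 on the control arrays and 1.22 and 1.27 on the knockout arrays, and its 3 further probes differed by 0.66, 0.30 and 0.33. Ifih1 gave -0.29 and -0.058 against -0.048 and 0.23, and Dhx58 gave -2.64 and -1.90 against -2.18 and -1.83. The differences were 0.48 ± 0.32, 0.27 ± 0.24 and 0.27 ± 0.34, and CD109+/+ replicate 1 was lowest in all 3 genes.

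The transcription factors differed least, with a median of 0.18 over 5 genes. Irf1, induced by interferon gamma, read 3.08 and 3.19 against 3.28 and 3.47, and Irf8, a factor of macrophages and dendritic cells, read 0.86 and 0.76 against 1.33 and 0.96. Irf9, the DNA-binding part of the type I complex, read 1.46 and 1.56 against 1.57 and 1.80. These 3 did not overlap between genotypes (background 20.3%), but their differences of 0.24 ± 0.22, 0.34 ± 0.24 and 0.18 ± 0.22 were close to their errors. Irf7, which amplifies the type I response, read 1.23 and 1.81 against 1.50 and 1.60, and Stat2 read 0.65 and 1.22 against 1.02 and 1.19. For Irf7 the difference was 0.029 ± 0.28, and for Stat2 a further probe gave -0.31 where the brightest gave 0.17. It was the only one of 12 further tested probes, over 9 members, whose sign went against the brightest probe.

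Upstream of the members, the interferons themselves varied in signal. Of the 9 listed ligand genes with a probe, Ifnb1, Ifna4 and Ifne were not well above background on any array. Ifng was well above background on both CD109-/- arrays, at -4.73 and -5.35, and on neither CD109+/+ array, with measured values of -7.56 and -7.54. Its signal was at least 1.63-fold higher in CD109-/- tumours (limma's adjusted p = 0.376 on the measured values). Ifng entered the tests only through the CD109-/- arrays, so the filter itself favoured a higher value there. With both controls not well above background, no order between CD109+/+ replicates 1 and 2 can be read for Ifng. Ifna1, Ifna2, Ifna5, Ifnk and Ifnl3 were well above background on all 4 arrays. They differed by -0.28, -0.029, -0.26, -0.19 and 0.19, with errors of 0.21 to 0.44. Signal shared between the Ifna genes was not examined.

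Among the receptors, 5 of 6 had a higher mean in CD109-/- tumours (background 50.4%). Ifnar2 read 1.29 and 1.52 against 1.99 and 2.29, a difference of 0.74 ± 0.24 (limma's adjusted p = 0.606), whereas Ifnar1 differed by -0.042 ± 0.26. Ifngr1, Ifngr2, Ifnlr1 and Il10rb differed by 0.09, 0.57, 0.25 and 0.15. In the signalling list 12 of 13 genes were higher on average (background 50.4%) and 4 had an unadjusted p under 0.05 (background 7.43%), while 0 passed limma's adjusted threshold. Socs1, a feedback inhibitor, read -1.33 and -1.08 against -0.84 and -0.69, with both knockouts above both controls. Irf5, Cgas (the cytosolic DNA sensor) and Mavs (the adaptor of the RNA sensors) differed by 0.99 ± 0.26, 0.78 ± 0.27 and 0.59 ± 0.21.

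Of 19 tested interferon-stimulated genes outside the 35, 18 had a higher mean in CD109-/- tumours (background 50.4%), with a median difference of 0.45. Limma gave 2 of them an unadjusted p under 0.05 (background 7.43%) and 0 past the adjusted threshold. In 14 of the 19 the lowest value was on CD109+/+ replicate 1 (background 23.8%). Ifitm1, a restriction factor at endosomal membranes, read -1.36 and -0.67 against 1.20 and 0.73, a difference of 1.98 ± 0.35. Dtx3l and Parp14 differed by 0.74 ± 0.21 and 0.83 ± 0.34. Cxcl10, a T cell chemokine, read -2.66 and -1.19 against -1.30 and -1.59, again with CD109+/+ replicate 1 apart.

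Genes best known from interferon gamma, beyond the members, were higher on average in 6 of 8 (background 50.4%), with a median of 0.51. Limma gave 2 an unadjusted p under 0.05 (background 7.43%) and 0 past the adjusted threshold, and 4 of the 8 had their lowest value on CD109+/+ replicate 1 (background 23.8%). Cxcl9, a chemokine for CXCR3-bearing T cells, read -3.45 and -3.94 against -2.37 and -2.93, a difference of 1.05 ± 0.32. Gvin1, a very large inducible GTPase, and Tgtp2, an immunity-related GTPase, differed by 1.13 ± 0.31 and 0.91 ± 0.34. Ciita, the master regulator of MHC class II genes, did not follow, with 2.37 and 3.05 against 1.77 and 3.60.

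Markers of immune cells were measured beside these genes. All 12 macrophage markers had higher means in CD109-/- tumours (background 50.4%), with a median difference of 0.57. Their summed level, in units of each array's 75th percentile, was 32.6 to 36.7 in CD109+/+ tumours and 49.5 to 55.5 in CD109-/- tumours. Cd163, Mrc1 and Itgax led this list, Cd163 at least 3.39-fold higher and the others by 1.21 ± 0.22 and 0.86 ± 0.21. Cd163 entered the tests only through the CD109-/- arrays, so the filter itself favoured a higher value there. Of 8 tested T and NK cell markers 7 had higher means (background 50.4%), with a median of 1.10. Their summed levels were 6.95 to 8.93 against 8.40 to 9.33, ranges that overlap. This sum came mainly from Cd247 (log2 signals of 2.49 and 1.96 against 2.37 and 2.28) and Cd4 (1.14 and 0.99 against 1.00 and 0.88). The highest value of any other tested marker of the list was -0.20 (Cd3e on CD109-/- replicate 1). The sum therefore does not show the direction of the other T and NK cell markers. The largest differences between genotypes were those of Cd3d at 1.63 ± 0.30, Klrd1 at 1.57 ± 0.30 and Cd3g at 1.54 ± 0.32. Cd3e and Cd247 differed by 0.30 ± 0.24 and 0.096 ± 0.27, and Cd4 had the lower mean in CD109-/- tumours (-0.12 ± 0.21). The NK markers Klrb1c and Ncr1 were not well above background on any array. The part of these cells in the members' values was not tested.

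The markers went both ways between the controls. Between the CD109+/+ arrays, replicate 2 minus replicate 1 had a median of 0.055 over macrophage markers (8 of 12 above) and 0.070 over T and NK cell markers (4 of 8 above), against 0.56 over the members (28 of 31 above). T and NK cell markers ran from -0.53 (Cd247) to 0.71 (Cd3g), and among those that differed most between genotypes Cd3d and Klrd1 stood at 0.67 and 0.37. For Cd163 both controls were not well above background, and no order between them can be read. Of 7 tested dendritic cell markers 5 had higher means in CD109-/- tumours (background 50.4%), with a median difference of 0.65 between genotypes and of -0.050 between the controls. Clec9a and Ccr7 differed by 1.32 ± 0.25 and 0.95 ± 0.24. Flt3 had a measured difference of 2.20 ± 0.53, with CD109+/+ replicate 1 not well above background, so that it entered the tests only through the CD109-/- arrays. Siglech (-0.40 ± 0.21, genotypes not overlapping) and Zbtb46 (-0.40 ± 0.33, not well above background on 1 CD109-/- array and tested only through the CD109+/+ arrays) had lower means. The summed level of the dendritic list was lower in CD109-/- tumours, at 88.6 to 94.8 against 118 to 122, but this sum was almost entirely Siglech. Siglech read 6.92 and 6.87 against 6.55 and 6.45. No other tested marker of the list read above -0.89 (Ccr7 on CD109-/- replicate 1). The sum therefore follows that 1 probe and does not show the direction of the other dendritic cell markers. Lung epithelium markers had lower means in 5 of 8 (8159 of 16443 over all genes), with Nkx2-1 at -0.62 ± 0.31 and Krt18 at -0.46 ± 0.39. Sftpa1, Cdh1 and Epcam had higher means, by 0.48 ± 0.38, 0.20 ± 0.42 and 0.011 ± 0.35. Between the controls the median of this list was -0.25 (1 of 8 above). B cell, neutrophil, endothelial and fibroblast markers had medians of -0.18, 0.92, 0.30 and 0.79 between genotypes and 0.18, -0.86, -0.069 and -0.15 between the controls.

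**Figure D5:**
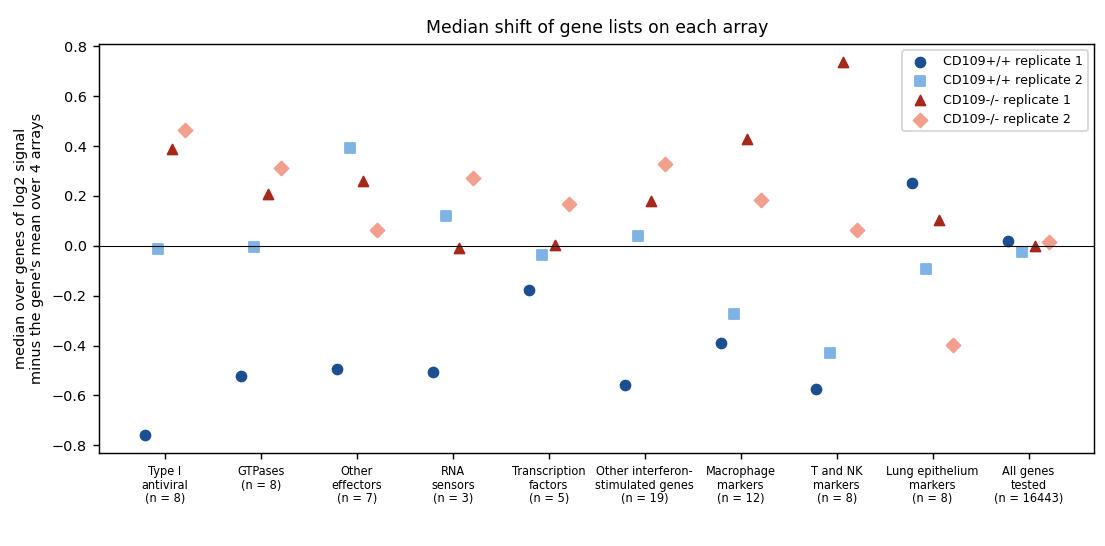
Median over the genes of each list of the log2 signal minus the gene's mean over the 4 arrays, shown for every array. CD109+/+ replicate 1 lies at -0.76 to -0.18 in the member groups. In the macrophage and in the T and NK cell markers both CD109+/+ arrays lie below both CD109-/- arrays, at -0.39 and -0.27 and at -0.57 and -0.43.

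Set against the promoter matches, members with an ISRE core (16 genes) had a median difference between genotypes of 0.51, and those with a window but no core (9 genes) of 0.24. Their medians for CD109+/+ replicate 2 minus replicate 1 were 0.56 and 0.44. The lowest value lay on CD109+/+ replicate 1 in 15 of the 16 and in 6 of the 9, against 26 of all 31 tested members and 23.8% of all genes. These are descriptions of small, unequal groups of genes with no test, and the groups differ in role, since most transcription factors held no core.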

How the data were processed

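Total RNA (100 ng per sample) of 4 lung tumour samples was labelled with Cy3 and hybridised to 1-channel Agilent microarrays, as the labels' protocols state. The deposited scanner files hold linear intensity values made with Agilent Feature Extraction 12.1.0.3, per the file headers, and their processed signal was background-subtracted but not scaled between arrays. A table of the authors' processed intensity values equalled that signal times 1 constant per array (1.19, 1.21, 1.04 and 1.08), had column medians of 58.8, 76.1, 59.5 and 69.2, and was not centred. No source used here gives the reason for the constants.

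Control spots and outlier spots were left out, spots of a probe were averaged on the log2 scale, and each array's 75th percentile was subtracted. Of 56605 probes, 34566 received a gene symbol by matching accessions to a RefSeq table (GRCm38.p6). A gene entered the test if both arrays of either genotype had its probe well above background, with limma 3.58.1 in R 4.3.3 on all 4 arrays, without covariates, two-sided, adjusted by Benjamini-Hochberg over all 16443 genes (2 residual and 2.54 prior degrees of freedom). For a gene not well above background in 1 genotype a bound is given, against the higher of its own signal and the lowest signal well above background on that array. The members and lists were chosen with earlier results of these data known, so no test over a list is given. All 35 members are named. Of the other pathway lists, the ligands and receptors above background, 5 fixed genes (of which 1 is not reported here) and the 3 genes with the largest moderated t per list are named, and likewise the 3 largest of the marker lists described; Ifit3b, named beside Ifit3, and the markers Sftpc, Klrb1c, Ncr1, Cd247, Siglech and Zbtb46 were added after their values were seen. Promoters were picked by moderated t among members with a match. All 4 arrays shared 1 slide and 1 scan time. The fit was tested on simulated data. Alternatives were other background, scaling, filter, variance, probe and covariate choices and leaving out each array.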

Additional observations from a re-analysis of the deposited data

How the results depend on the processing

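Over 16 other settings no gene and no member passed limma's adjusted threshold of 0.05 (0 in each), and at 0.1 the reported setting gave 0 of both. The settings gave 555 (without CD109+/+ replicate 1) to 1937 (without CD109-/- replicate 2) genes at an unadjusted p under 0.05, against 1221. Members at that p numbered 1 without CD109+/+ replicate 1, 2 without CD109-/- replicate 1, with sex as a covariate or with the authors' values unscaled, and 4 to 7 otherwise, and the lowest adjusted p of a member was 0.198. Of 31 members, 18 kept their sign in every setting, 17 higher and 1 lower. Leaving out 1 array moved the median difference between 0.12 and 0.67 for all members, 0.21 and 1.15 for the antiviral genes, 0.27 and 0.74 for the GTPases, -0.27 and 0.55 for the other effectors, 0.12 and 0.64 for the RNA sensors, and 0.088 and 0.30 for the transcription factors. The antiviral minus GTPase gap moved between -0.057 and 0.41, and was -0.10 with effectors and sensors added. Signs turned when an array was left out for Ifit1 (-0.37 to 1.28), Ifit2 (-0.95 to 0.49), Oasl1 (-0.60 to 2.96), Gbp6 (-0.055 to 0.59), Irgm1 (-0.014 to 0.77), Isg15 (-0.38 to 0.48), Usp18 (-0.049 to 0.99), Ifi44 (-0.27 to 1.03), Xaf1 (-0.34 to 0.54), Dhx58 (-0.10 to 0.64), Irf7 (-0.26 to 0.32) and Stat2 (-0.11 to 0.45). In other settings signs turned for Ifit2 (0.49), Oasl1 (-0.60) and Xaf1 (-0.16) with sex as a covariate, which removes the only male array from the comparison, for Oas3 with normexp (-0.054), for Irf7 with quantile normalization (-0.0071) and with centring on the median gene (-0.013), and for Stat2 with the mean of its probes (-0.068). Beyond the construction of each setting, the cause was not tested. CD109+/+ replicate 1 held the lowest value of 24 to 28 members in the settings with all 4 arrays. Normexp ran on the median spot signal, since the mean was not among the columns, and normexp, centring and the authors' unscaled values were added after the data were seen. Replicate numbers 1 and 2 occur in both genotypes. With the replicate number as a block (replicate block) 7 members and 1901 genes had an unadjusted p under 0.05 and 0 passed the adjusted threshold. Same-numbered arrays deviated together (r = 0.363 across genes), but 2 pairs and the labels do not show a shared origin. The number of arrays limits the precision, and Oas3 and Gbp9 lay close to background.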
